A study of Mus musculus with 4 samples.

Results

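The Kruppel-like factors are transcription factors that bind GC-rich and CACCC-type DNA elements. The 8 members described are Klf2, Klf3, Klf4, Klf6, Klf7, Klf9, Klf10 and Klf13, chosen by gene symbol from 17 KLF genes, each matching 1 gene identifier among 55536 annotated genes. They were measured in cytosolic RNA of C57BL/6J mouse macrophages derived from bone marrow, phagocytes grown in culture from marrow precursors, with ribosomal RNA depleted before sequencing. All 4 libraries, biological replicates 1 to 4, came from cells exposed to lipid A at 100 ng/ml for 12 h, washed and rested for 12 h, and exposed to 100 ng/ml again for 15 min. Lipid A, the membrane anchor of bacterial lipopolysaccharide, is the ligand of Toll-like receptor 4. With 1 group and no untreated sample among those used here, no value is a response to lipid A. The 4 libraries carry a single donor record with no sex or age, so the tests measure the spread between these libraries, and whether separate animals were used is not given.

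Each Kruppel-like factor carries, near its C-terminal end, a run of zinc fingers that reads the DNA. The part before the fingers differs between members and recruits coactivators or corepressors. In macrophages, KLF2 and KLF4 are known for restraining inflammatory gene expression and KLF6 for promoting it. KLF10 is known as an early target of transforming growth factor beta. A messenger RNA level does not give the amount or activity of the protein. In bulk RNA, fewer cells expressing a gene and less RNA per cell cannot be told apart.

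The cultures carried the RNA of their labelled cell type. All 7 macrophage markers were called above 10 TPM (a relative level corrected for transcript length and library total), led by Lyz2 at 3430 ± 684 TPM (SD, n = 4) and Adgre1 at 706 ± 205 TPM. Summed levels in the 4 libraries ranged from 0.16 to 0.55 TPM for 6 T cell markers, from 1.07 to 1.85 TPM for 5 B cell markers, from 0.09 to 0.25 TPM for 6 stromal markers and from 7.5 to 15.1 TPM for 6 neutrophil markers. Among the B cell markers Cd79b was called above 1 TPM, at 1.36 ± 0.334 (SD, n = 4). Among the neutrophil markers S100a8 and S100a9 were too, at 4.54 ± 1.27 and 6.25 ± 1.91. The 7 endothelial markers summed to between 3.97 and 13.4 TPM. Of these, Kdr was called above 1 TPM at 5.0 ± 4.29 (SD, n = 4), Pecam1 on neither side at 0.878 ± 0.245, and Cdh5 and Egfl7 below it at 0.595 ± 0.362 and 0.185 ± 0.122. The other endothelial markers were not tested, with 3 counts for Emcn and 1 count each for Tek and Tie1 over all 4 libraries. Expected counts summed to between 30660511 in replicate 1 and 48223718 in replicate 3.

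The zinc fingers are the part that the members share, and the second finger is shown because its DNA-reading stretch is translated alike in all 8 although its codons differ. The sequences are the coding strand of the second finger in the leading transcript of each gene (mm10, GENCODE M21), 5′ to 3′. Capitals mark the codons for arginine, serine, aspartate, glutamate and leucine, the stretch at the start of the finger's recognition helix. They are ordered so that close relatives follow each other.
Klf6: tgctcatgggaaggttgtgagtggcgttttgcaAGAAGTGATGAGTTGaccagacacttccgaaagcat
Klf7: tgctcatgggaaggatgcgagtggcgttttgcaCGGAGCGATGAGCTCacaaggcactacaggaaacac
Klf2: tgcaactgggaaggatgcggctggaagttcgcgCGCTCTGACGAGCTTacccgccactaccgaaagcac
Klf4: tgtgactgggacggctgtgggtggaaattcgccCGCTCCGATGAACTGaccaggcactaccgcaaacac
Klf13: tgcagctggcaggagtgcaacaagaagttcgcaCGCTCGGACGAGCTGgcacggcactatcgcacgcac
Klf9: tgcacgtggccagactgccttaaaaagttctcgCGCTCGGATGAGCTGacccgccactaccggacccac
Klf3: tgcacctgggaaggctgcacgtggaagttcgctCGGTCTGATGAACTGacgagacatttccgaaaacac
Klf10: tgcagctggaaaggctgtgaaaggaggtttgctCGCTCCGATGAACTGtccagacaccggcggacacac

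Those capitals were written in 7 different ways in the 8 genes, with Klf4 and Klf10 using the same codons. The finger 2 sequences lie at chr13:5866656-5866724 in Klf6, chr1:64042352-64042420 in Klf7, chr8:72320761-72320829 in Klf2, chr4:55528215-55528283 in Klf4, chr7:63891712-63891780 in Klf13, chr19:23164700-23164768 in Klf9, chr5:64828994-64829062 in Klf3 and chr15:38296079-38296147 in Klf10. The strand is plus for Klf2, Klf3, Klf6 and Klf9 and minus for the other four, and all lie in coding exons. Every member had 3 fingers, and the stretch from the first to the last finger was 81 residues long in each. Of these, 45 residues were identical in all 8 members. Klf6 and Klf7 shared 95.1% of the residues, Klf2 and Klf4 91.4%, and Klf9 and Klf13 81.5%, against a median of 69.1% over the 28 pairs. Klf3 was equally close to Klf4, Klf6 and Klf7, with 81.5% in each case, and Klf10 was closest to Klf13, with 75.3%.

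Levels of the 8 members ranged in mean TPM from Klf6 at 83.6 to Klf9 at 0.253. Members are described from the highest level to the lowest, each first by its values in replicates 1, 2, 3 and 4. Levels were tested with limma, one-sided against 1 and 10 TPM in each direction over 16262 genes with a summed expected count of at least 10, with Benjamini-Hochberg adjustment. Of the 8 members, 6 were called above 1 TPM, 1 below it (Klf9), and Klf4 on neither side. Over all genes tested, 58.2% were called above 1 TPM and 35.1% below it. Against 10 TPM, 3 members were called above (Klf6, Klf3 and Klf13) and the other five below, beside 21.7% and 69.8% of all genes tested. The members' median was 6.54 TPM, beside 2.72 TPM over all genes tested. The members were chosen with earlier results of these data known, so these comparisons are descriptions only.

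These levels depend on the denominator of TPM, which also holds RNAs other than those of nuclear protein-coding genes. Which RNA types fill that part was not tested. When the TPM were rescaled so that nuclear protein-coding genes have the same total in each library, the median gene tested moved by 1.6 on the log2 scale. Klf2, at a rescaled mean of 18.6, and Klf10, at 24.0, then turned from below to above the level of 10. Klf4, at 2.82, was then called above the level of 1, and Klf9, at 0.85, on neither side. The order of the members' means was the same on both scales.

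**Figure D1:**
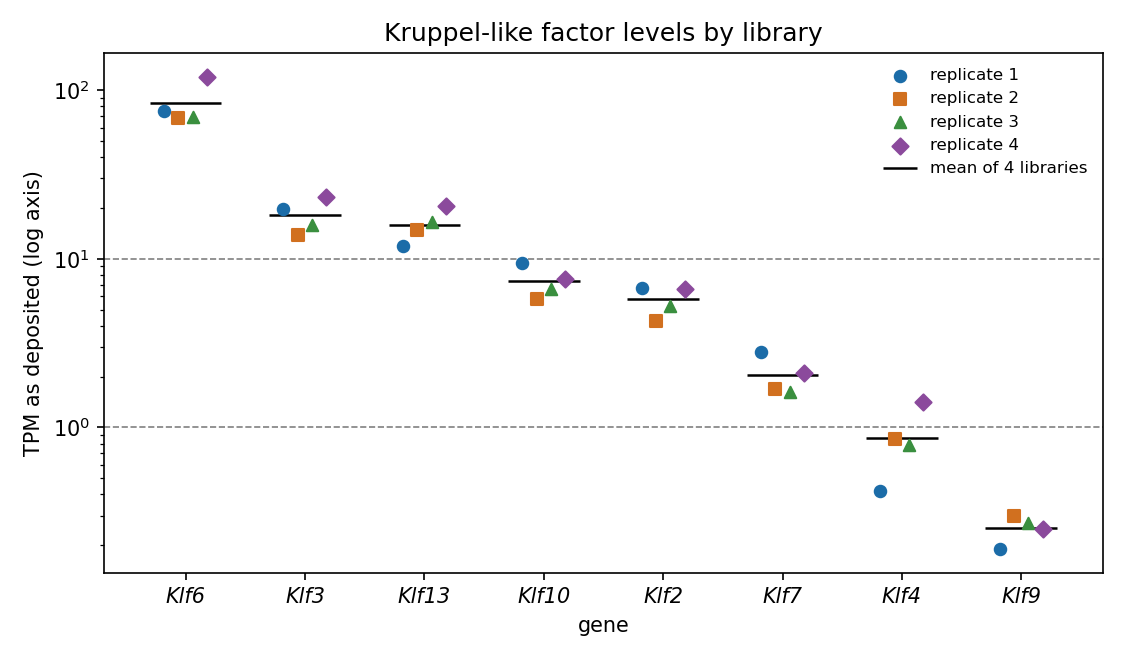
TPM of the 8 members in each library as deposited, on a log axis, with the mean of 4 libraries as a bar and dashed lines at 1 and 10 TPM. Klf6 lies above 68 TPM in every library and Klf9 at or below 0.3 TPM in every library.

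Klf6 is a widely expressed activator described as a partner of NF-kB at inflammatory genes. Its levels were 75.5, 68.7, 69.8 and 120.3 TPM in replicates 1 to 4, a mean of 83.6 ± 24.7 (SD, n = 4). Replicate 4 stood apart at the top and the other three lay close together. Klf6 held 60.4% ± 3.27 (SD, n = 4) of the summed TPM of the 17 KLF genes, and between 57.8% and 64.8% in single libraries. It was called above 10 TPM by limma (log2 mean 6.35, SE 0.16, adjusted p = 1.95e-07). On the rescaled values the 4 libraries were 239.2, 275.0, 235.1 and 329.9.

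Klf3 is a repressor that recruits the C-terminal binding proteins. Its levels were 19.6, 13.8, 15.8 and 23.3 TPM, a mean of 18.1 ± 4.23 (SD, n = 4), and it was called above 10 TPM (limma, adjusted p = 0.00091). Klf13 is known in T cells for driving late transcription of Ccl5. Its levels were 11.9, 14.8, 16.5 and 20.6 TPM, a mean of 16.0 ± 3.65 (SD, n = 4), and it too was called above 10 TPM (limma, adjusted p = 0.0044). The libraries of Klf3 and Klf13 overlapped, and which of these 2 genes was higher differed from library to library in these values.

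Klf10 encodes a repressor that recruits the SIN3A corepressor. Its levels were 9.39, 5.75, 6.63 and 7.6 TPM, a mean of 7.34 ± 1.56 (SD, n = 4), highest in replicate 1 and called below 10 TPM (limma, adjusted p = 0.0077). Klf2 is the factor that fluid flow induces in endothelial cells and that keeps T cells quiescent. Its levels were 6.75, 4.28, 5.27 and 6.66 TPM, a mean of 5.74 ± 1.19 (SD, n = 4), called below 10 TPM (limma, adjusted p = 0.0003). All 4 values of Klf10 and of Klf2 lay between 1 and 10 TPM.

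Klf7 is best known from neuronal and fat cell differentiation. Its levels were 2.81, 1.69, 1.62 and 2.1 TPM, a mean of 2.06 ± 0.546 (SD, n = 4), above 1 TPM in every library (limma, adjusted p = 0.00034). In the second quantification as deposited they were 1.44, 1.13, 0.723 and 0.862 TPM, and the call was lost (limma, adjusted p = 1.0). Klf4 is known for monocyte differentiation and for the alternative activation of macrophages. Its levels were 0.42, 0.85, 0.79 and 1.41 TPM, a mean of 0.868 ± 0.409 (SD, n = 4). Replicate 1 was lowest and replicate 4 highest, on either side of 1 TPM (limma, adjusted p = 0.349 for below). Klf9 is a target of the glucocorticoid receptor. Its levels were 0.19, 0.3, 0.27 and 0.25 TPM, a mean of 0.253 ± 0.0465 (SD, n = 4), below 1 TPM in every library (limma, adjusted p = 7.6e-06). Klf9 still rested on 41 to 91 counts per library and Klf4 on 60 to 231.

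Neighbours in the order of mean TPM were compared within each library. In 6 of the 7 neighbour pairs the higher gene was higher in 4 of 4 libraries. The exception was Klf3 and Klf13, where Klf3 was higher in 2 of 4 and the ratio of TPM ran from 0.936 to 1.65. The narrowest of the other pairs was Klf10 over Klf2, with ratios from 1.14 to 1.39, and the widest was Klf6 over Klf3 in the mean log2 difference, with ratios from 3.85 to 5.15. An exact two-sided sign-flip test gave p = 0.13 for each of the 6 pairs (adjusted 0.146 over 7 pairs), the smallest p that 4 libraries can give, so this design cannot reach 0.05. In the second quantification Klf13 was higher than Klf10 in 1 of 4 libraries, and the mean log2 difference turned to -0.52. Klf3 was there higher than Klf13 in 4 of 4 libraries, with ratios from 1.08 to 1.91.

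In 3 pairs of close relatives in the finger sequences, the same member was the higher one in all 4 libraries. Klf3, as close to Klf4, Klf6 and Klf7 as Klf9 was to Klf13, was not paired here. Klf6 exceeded Klf7 by 26.9-fold to 57.3-fold in TPM in the 4 libraries, and Klf13 exceeded Klf9 by 49.2-fold to 82.6-fold. Klf2 exceeded Klf4 by 16.1-fold in replicate 1 and by 4.72-fold to 6.67-fold in the other three. The exact sign-flip test gave p = 0.13 for each of the 3 pairs, again the smallest possible. In the second quantification the ratios ran from 23.6 to 45.4 for Klf6 over Klf7, from 57.2 to 90.5 for Klf13 over Klf9 and from 4.13 to 12.5 for Klf2 over Klf4.

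**Figure D2:**
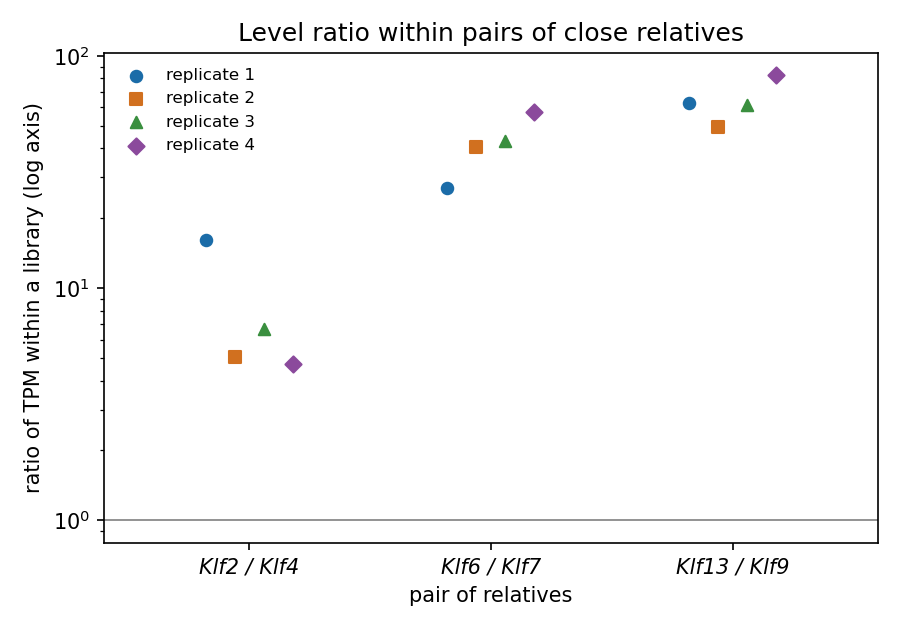
Ratio of TPM within a library for the 3 pairs of relatives, on a log axis, 1 point per library, with a line at a ratio of 1. All 12 points lie above the line, and replicate 1 stands highest for Klf2 over Klf4 at 16.1 and lowest for Klf6 over Klf7 at 26.9.

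The spread between libraries was described by the biological coefficient of variation (BCV) of edgeR, the relative spread of a gene's true level beyond counting error. It was lowest for Klf3 at 0.126, then 0.138 for Klf2, 0.146 for Klf13 and 0.158 for Klf6. It was 0.201 for Klf10, 0.227 for Klf9, 0.292 for Klf7 and highest for Klf4 at 0.406. The median was 0.179 over the members and 0.146 over all genes tested, an order that turned under some of the other settings given further below. Of the 4 libraries left out in turn, replicate 1, the one with the fewest counts, moved the members' median BCV most. It was then 0.098 and that of all genes tested 0.112. The BCV of Klf10 was 0.0099, of Klf13 0.033, of Klf7 0.057, of Klf2 0.069 and of Klf4 0.201. Klf3, at 0.128, Klf9, at 0.197, and Klf6, at 0.19, moved less, the last of these upwards. Klf2 had a BCV of 0.209 in the second quantification, where the median of all genes was 0.227. Without replicate 4 the BCV of Klf6 was 0.056, and without replicate 2 that of Klf9 was 0.128. Estimates with a replicate left out rest on few values and use no shrinkage, so the small ones are imprecise.

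The members did not deviate alike in replicate 1. On log2 CPM (counts scaled to library size with TMM factors), Klf7 lay 0.61, Klf10 0.43, Klf2 0.28 and Klf3 0.17 above their means there. Klf4, Klf9, Klf13 and Klf6 deviated by -0.89, -0.38, -0.32 and -0.08 in the same library. The 7 immediate-early genes, which respond within minutes of a stimulus, are given in TPM. Fos and Egr1 were highest in replicate 1 and the others were not. Fos had levels of 31.1, 11.3, 18.2 and 4.89 TPM, and Egr1 levels of 7.36, 2.16, 5.91 and 1.43 TPM. Atf3 was lowest in replicate 1, with levels of 69.6, 84.9, 72.2 and 141.9 TPM. Junb was highest in replicate 4, Ier2 in replicate 3, and Fosb and Dusp1 in replicate 2. The endothelial marker Kdr, lowest in replicate 1 and highest in replicate 4 like Klf4, was at 1.79, 3.36, 3.53 and 11.3 TPM. In TPM, Pecam1 (0.96, 0.54, 0.89 and 1.12) and Cdh5 (0.85, 0.14, 0.47 and 0.92) were highest in replicate 4 too, but lowest in replicate 2. On log2 CPM both were highest in replicate 1, deviating by 0.227 and 0.81 there, against 0.19 and -0.092 in replicate 4. The part of depth, of early response gene levels or of Kdr-expressing cells in these deviations was not tested.

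**Figure D3:**
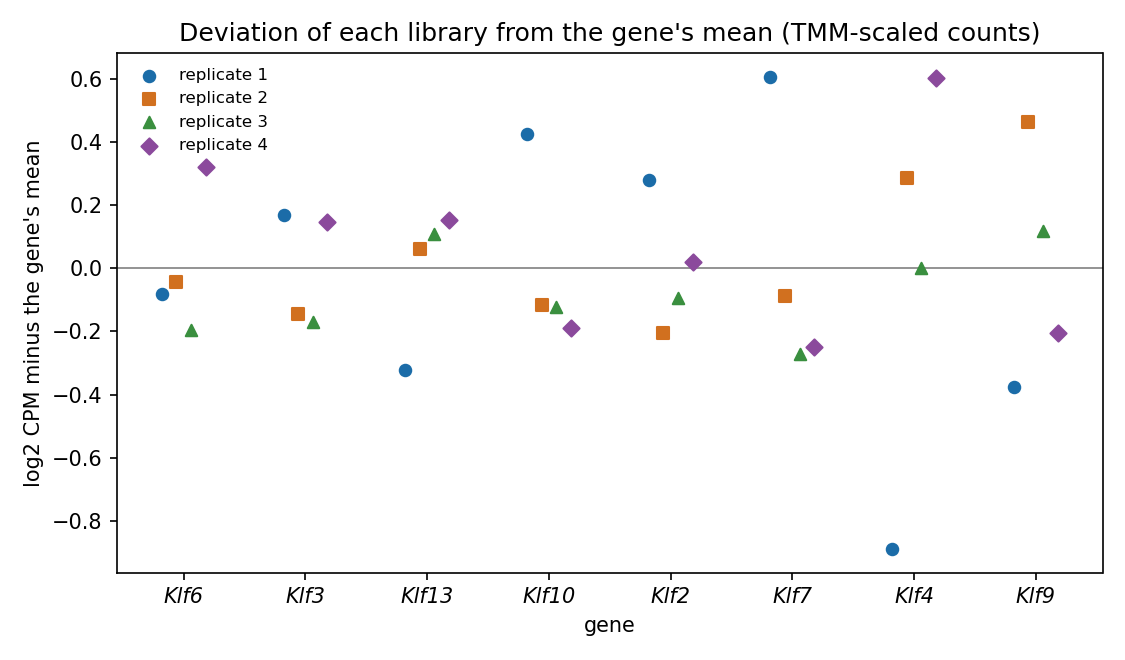
Log2 CPM of each library minus the gene's mean over 4 libraries, for the 8 members in order of level. In replicate 1, Klf7 at 0.61 and Klf10 at 0.43 lie highest and Klf4 at -0.89 lies lowest.

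Genes whose pattern over the 4 libraries was most like that of Klf4, among 4381 genes of at least 10 TPM, were Plk2, Gpr162 and Gadd45b, with root mean squared differences in log2 CPM deviation of 0.14, 0.144 and 0.149. Those most like Klf6, among 4380, were Ifi203 and Ly6e at 0.025 and Slfn2 at 0.033. With 4 libraries this likeness is a description of these libraries.

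The authors' first quantification, which gives the values above, and their second were compared gene by gene. After both were scaled to protein-coding genes, 0 of the 6 members of sufficient level were called different by limma treat (a log2 difference beyond 1), and 0 had an unadjusted p under 0.05. Over the 10329 genes tested, 1.01% were called higher and 1.9% lower in the first quantification, and 475 had an unadjusted p under 0.05. Klf2, Klf13 and Klf6 differed by 0.07, -0.06 and -0.10 in log2 (first minus second), Klf3 by -0.28 and Klf7 by -0.46. Klf10 stood apart at -1.70 (SE 0.42, unadjusted p = 0.0854, adjusted p = 1.0), higher in the second quantification in every library. On the rescaled values Klf10 was at 29.7, 23.0, 22.4 and 20.9 in the first quantification and at 48.6, 73.5, 57.4 and 174.8 in the second. Replicate 4 was lowest in the one and highest in the other.

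The transcripts of Klf10 show where the quantifications part. In the first, Klf10-201, a transcript of 3044 bases, held 83.1% ± 12.1 (SD, n = 4) of the gene's TPM and Klf10-202 held 14.4% ± 12.2. In the second, Klf10-201 held 32.2% ± 18.7 and Klf10-204, a transcript of 326 bases, held 63.5% ± 18.6. The TPM on Klf10-204 were 2.89, 5.28, 2.93 and 16.7 in the second quantification, against 0, 0, 0 and 0.14 in the first. The TPM on Klf10-201 in the second were 3.73, 2.22, 1.8 and 1.94. Klf10-204 was thus highest in replicate 4, where Klf10-201 was near its lowest.

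**Figure D4:**
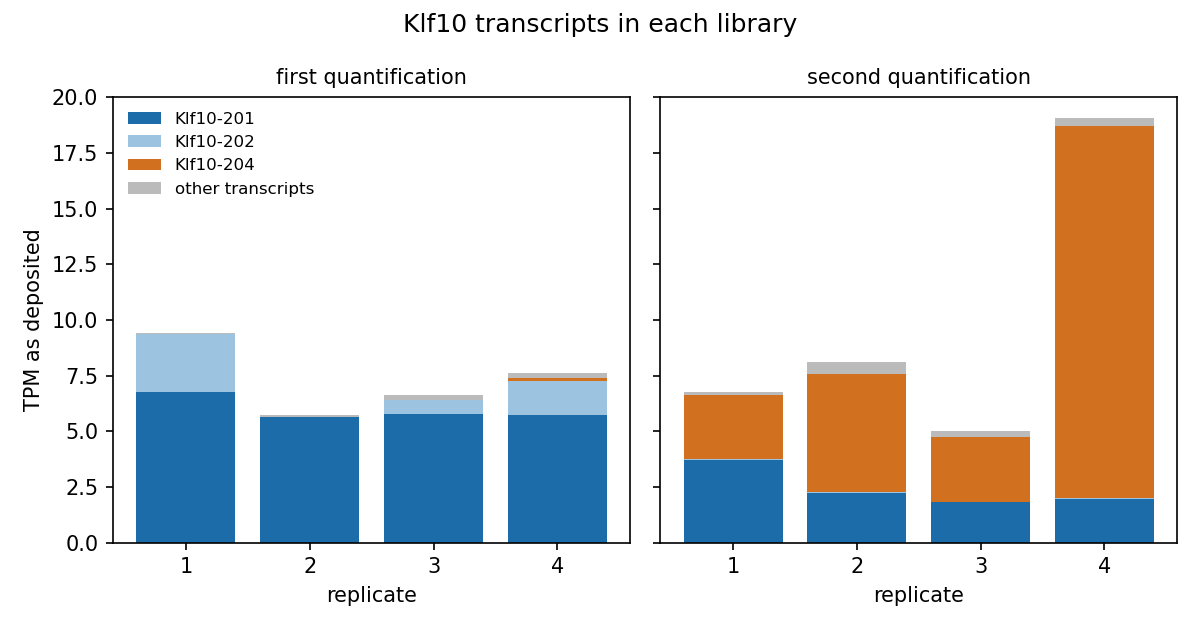
TPM of the Klf10 transcripts in each library, stacked, in the first quantification (left) and the second (right). Klf10-201 fills most of each bar on the left, and Klf10-204 reaches 16.7 TPM in replicate 4 on the right.

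The stretch that sets Klf10-204 apart is shown because the quantifications differ in the TPM assigned to this transcript as a whole. Which of its bases carried that difference was not tested. Klf10-204 shares its first exon of 148 bases with Klf10-201 and then has 178 bases of its own, from exons at chr15:38300267-38300417 and chr15:38299874-38299900 (mm10, minus strand). Both are annotated as coding and lie within the first intron of Klf10-201, at chr15:38297853-38300558. The 178 bases are printed 5′ to 3′, with the last exon of 27 bases in capitals.
Klf10-204: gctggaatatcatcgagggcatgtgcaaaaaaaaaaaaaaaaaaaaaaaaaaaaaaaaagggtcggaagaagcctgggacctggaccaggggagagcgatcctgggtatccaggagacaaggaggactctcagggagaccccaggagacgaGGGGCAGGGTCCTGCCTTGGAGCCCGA

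This stretch holds a run of 33 adenines, a length that 82 of 141767 annotated transcripts (0.0578%) reach, while the longest run in Klf10-201 is 7. Whether reads fell on this run was not tested, since the tables give no read positions.

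For the other members the same transcript led in both quantifications. Klf2, with 1 annotated transcript, needed no assignment. Klf4-201 and Klf9-201 held 100.0% in the first quantification, and Klf6-201 97.1% ± 1.07 (SD, n = 4) and Klf13-201 95.8% ± 2.95. Klf3-201 held 85.6% ± 0.684 in the first and 63.6% ± 5.83 in the second, where Klf3-202 held 16.1% ± 3.77. Klf7-202 held 91.8% ± 5.05 in the first and 68.7% ± 10.8 in the second, where the short Klf7-203, of 553 bases, held 28.7% ± 9.92. The authors' posterior SD of the count was highest for Klf7, at 15.6 counts or 1.87% of its count at most, and was 0 for Klf2, Klf4, Klf9, Klf10 and Klf13. Klf3, Klf7, Klf9 and Klf13 overlap other annotated genes, opposite-strand ones for all but Klf9, each at or below 0.253 TPM, and the counting is not stated to use strand.

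The remaining KLF genes contributed little. The 8 members held between 96.8% and 98.2% of the summed TPM of the 17 KLF genes in each library. They were chosen with earlier results of these data known, so this share may follow from the choice. Of the other nine, 4 were tested, with 1 called above 1 TPM (Klf16, at 2.43 ± 0.661, SD, n = 4) and 3 below it. The next highest was Klf8, at 0.595 ± 0.197 TPM (SD, n = 4). Of all genes tested, 58.2% were called above 1 TPM and 35.1% below it. No count fell on Klf14 (0 counts per library), a result that allows at most 0.0207 TPM in replicate 1 and 0.0134 in replicate 3, taking 3 counts as the limit. Among 9 Sp factors, relatives that bind similar GC-rich sites, 4 were tested and all 4 were called above 1 TPM, led by Sp3 at 20.8 ± 3.53 TPM and Sp1 at 11.0 ± 1.69 TPM (SD, n = 4). Sp5 and Sp9 also had 0 counts, a result that allows at most 0.0313 and 0.0249 TPM in replicate 1.

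**Figure D5:**
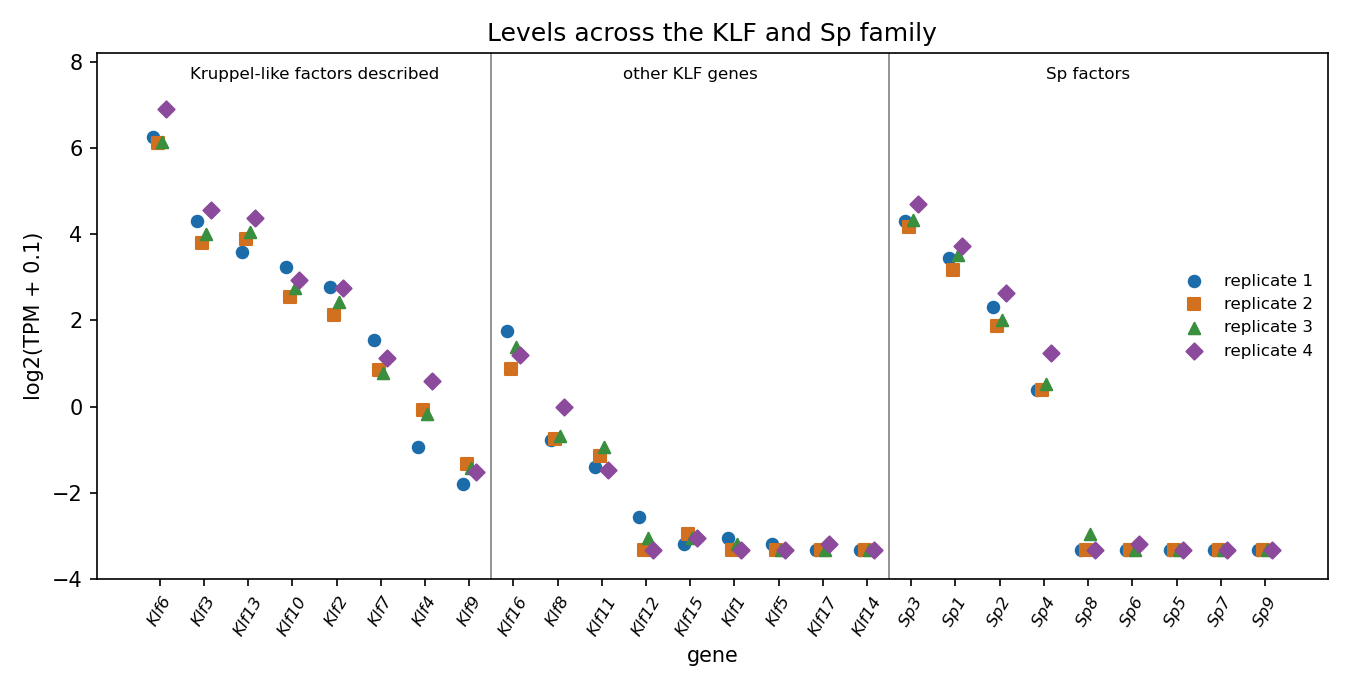
Log2(TPM + 0.1) of 17 KLF genes and 9 Sp factors in each library, 1 point per library. Klf16, at 2.43 TPM, is the highest of the other KLF genes, and Sp3, at 20.8 TPM, lies among the higher members.

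All 12 corepressor and coactivator genes were called above 1 TPM and 6 of them above 10 TPM, with a median of 14.9 TPM. Over all genes tested, 58.2% were called above 1 TPM and 21.7% above 10 TPM. The highest were Ncor1 at 45.4 ± 8.99 and Ctbp1 at 39.9 ± 5.78 TPM (SD, n = 4), the latter encoding the corepressor that KLF3 recruits. Of 8 ubiquitin ligases described for KLF proteins, all 8 were called above 1 TPM and 1 above 10 TPM. That one was Wwp1, described for KLF2 and KLF5, at 37.0 ± 1.83 TPM, followed by Itch at 12.6 ± 1.86 TPM (SD, n = 4).

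Of 14 regulators of KLF transcription, 13 were called above 1 TPM and 4 above 10 TPM, beside 58.2% and 21.7% of all genes tested. Tgfbr2, a receptor of the transforming growth factor beta pathway that induces Klf10, was at 26.6 ± 5.41 TPM, and Nr3c1, the glucocorticoid receptor gene, at 18.4 ± 3.89 TPM (SD, n = 4). Foxo1, an activator of Klf2 in lymphocytes, was called on neither side, at 0.993 ± 0.0675 TPM. Mef2a, Mef2c, Mef2d and Mapk7, the kinase that acts on them upstream of Klf2 and Klf4, were above 1 TPM.

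Among 14 genes described as KLF targets, 13 were tested, with 9 called above 1 TPM, 3 below it and 6 above 10 TPM. The shares of all genes tested with these calls were 58.2%, 35.1% and 21.7%. Ccl5, a chemokine gene that KLF13 activates in T cells, was highest at 5322 ± 1570 TPM, followed by Lgals3 at 763 ± 178 TPM (SD, n = 4). Below 1 TPM were Nos3 at 0.0175 TPM, Smad7 at 0.368 TPM and Arg1, an alternative activation gene, at 0.04 TPM. Retnla, another such gene, had 3 counts in all and was not tested. Of 7 immediate-early genes, 6 were called above 1 TPM and 2 above 10 TPM, led by Atf3 at 92.1 ± 33.9 and Junb at 51.6 ± 8.2 TPM (SD, n = 4), with Fosb below 1 TPM at 0.153 ± 0.128.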

How the data were processed

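Per the labels, 4 cytosolic total RNA libraries of 1 group were analysed. Per the deposited notes, reads were quantified on mm10 with annotation M21, first from a transcriptome alignment and then directly from the read files. Aligner and tool names are not given in the sources used. Per the file headers, the authors deposited expected counts (estimated counts in the second), TPM and, in the first, the posterior SD of the count. Shared reads were split between genes by the authors' estimation.

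Levels were tested with limma 3.58.1 on log2(TPM + 0.1), intercept only with a variance trend, Benjamini-Hochberg adjusted p below 0.05. Expected counts were rounded for edgeR 4.0.16 (TMM, no dispersion shrinkage). Shrinkage was taken out after the files had been read, because on simulated data it returned 42.87% of a seeded BCV of 0.8, against 92.4% without it, over 15958 genes. All members had a BCV below 0.8. At a seeded BCV of 0.25 the fit without shrinkage returned 88.82%, for genes with a mean count over 50. No value with shrinkage was computed there. DESeq2 1.42.0 gave alternative dispersions. Quantifications were compared with limma treat, for genes of at least 1 TPM in either. Fits ran in R 4.3.3, and Biopython read the coding sequences from the GENCODE transcripts. On simulated data, 98% to 100% of genes seeded at 0.25, 0.5, 2 or 4 times a level were called, over 16262 genes. Every gene was simulated with the same spread, and departures of less than 2-fold were not seeded. Those of Klf2, Klf3, Klf10 and Klf13 from 10 TPM and of Klf4 from 1 TPM were of that kind.

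The members and gene lists were chosen with earlier results of these data known. Named genes were the 8 members, the 2 highest of each list and any on the other side of 1 TPM from most of their list, and the 3 genes most like Klf4 and Klf6. Fos, Egr1, Ier2, Dusp1, the endothelial markers, the Mef2 genes, Mapk7, Klf14, Sp5, Sp9 and Retnla were named after their values were seen. Limits for a count of 0 cover counting error only.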

Additional observations from a re-analysis of the deposited data

Results flagged for a closer look

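In each member the highest and the lowest of the 4 libraries were set against the others with Dixon's ratio, on 2 scales, over 16 sets of values. Chance alone is expected to single out about 1 in 20 such sets. Klf6 in replicate 4, at 120.3 TPM, stood away from the other three libraries (Dixon's ratio 0.867). Klf13 in replicate 1, at 37.8 on the TPM rescaled to protein-coding genes, stood below the other three (Dixon's ratio 0.843). Neither library stood apart for the same gene on the other scale.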

How the results depend on the processing

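Other pseudocounts, other count filters, posterior mean TPM, TMM scaling and leaving out each replicate changed no member's call against 1 or 10 TPM. Without a count filter, limma warned that most residual variances were 0, so that setting is weak evidence. Leaving out a replicate kept 6 members above 1 TPM and 3 above 10 TPM.

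Scaling and quantification moved calls. Rescaled to protein-coding genes, 5 members and 7277 genes were called above 10 TPM, against 3 and 3529 as deposited. The second quantification as deposited gave 1 member and 1250 genes, and rescaled it gave 5 members and 7320 genes. Calls turned with the rescaling for Klf4 against 1 TPM (mean 2.82) and for Klf10 (23.99) and Klf2 (18.64) against 10 TPM. They turned likewise in the rescaled second quantification, at 2.98 for Klf4, 88.56 for Klf10 and 17.73 for Klf2, where Klf7 lost its call below 10 TPM (9.19) and Klf9 its call below 1 TPM (0.832). As deposited there, Klf3 (7.97) and Klf13 (5.97) fell on the lower side of 10 TPM, and Klf10 (9.74, adjusted p = 0.245) lost its call below it. Against 1 TPM, 5 members and 7324 genes were then called above, beside 6 and 9457 in the first quantification as deposited. Klf7 (1.04, adjusted p = 1.0) lost its call, and Klf4 (0.324, adjusted p = 0.000389) was called below. By construction each rescaling multiplies all genes of a library by 1 factor, and for the unscaled second quantification the cause was not tested.

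The members' median BCV of 0.179 ranged from 0.098 without replicate 1 to 0.201 without replicate 3, and was 0.173 with edgeR's default shrinkage, an alternative added after seeing the data. The median over all genes of each setting moved too, to 0.112, 0.143 and 0.2055. The members' median was below it without replicate 1, with that shrinkage, without a count filter (0.173 against 0.232) and in the second quantification (0.185 against 0.227). It was above it without replicate 2, 3 or 4 and with the DESeq2 dispersions. No paired analysis was possible because there is 1 group. Depth limits Klf9, at 41 to 91 counts per library, and the genes with 0 counts.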

Other observations

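Upstream promoter sequence was given for 7 members (RefSeq, GRCm38.p6), and 10 motifs were searched on both strands in the 250 bases before the start. GGGCGG was found in 6 of 7 (32.7% of 32851 promoters held it), CACCC in 5 (52.0%), TGACG in 4 (17.8%), CCAAT in 3 (33.8%) and TATAA in 2 (22.8%). The NF-kB element was found in Klf3 alone (10.8%) and the MEF2 element in Klf2 alone (2.92%). AP-1 (4.46%), CRE (1.55%, and overlapping TGACG) and CArG (1.47%) were found in none of the 7. These matches are descriptions of letters.

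The 3′ untranslated regions of the leading transcripts held between 1 (Klf2 and Klf4) and 18 (Klf7) copies of ATTTA, the core of AU-rich elements that shorten the life of a messenger RNA. In the first 700 bases, 5 of the 8 members held at least 1 copy, beside 59.3% of 6795 leading transcripts of tested protein-coding genes. The longer element TTATTTATT was found in 0 of the 8, beside 6.95% of 11518 such transcripts over their whole untranslated region.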
